A study of Mus musculus with 18 samples.

Results

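Activating Fc gamma receptors are the surface receptors through which macrophages respond to IgG bound to microbes, cells or soluble antigen. Their mouse genes in the deposited table are Fcgr1, Fcgr3 and Fcgr4, and they were chosen by gene name: all rows of the table that carry one of these 3 names and compare 2 of the 6 labelled groups were used. The 3 genes have 5 transcript entries with 38 rows, out of 5455 named genes and 7315 entries that have a row between these groups. Fcgr1 and Fcgr3 have 2 entries each and Fcgr4 has 1.

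The 18 samples, 3 in each of 6 groups, were RAW264.7 cells, an established line with macrophage properties derived from a mouse tumour. Construct cells (p2080 in the labels) carry the lentiviral vector pINDUCER20-mCITED1, in which doxycycline switches on the murine co-regulator CITED1, a nuclear protein that binds other transcription regulators and not DNA. They were given doxycycline at 100 ng/mL plus interferon-gamma at 200 U/mL, interferon-gamma alone, doxycycline alone, or neither. Parental cells without the construct were given doxycycline or left untreated. No parental group with interferon-gamma was analysed here, so in stimulated cells the effects of CITED1 and of doxycycline itself cannot be told apart. The labels do not say whether the transduced line is a clone, or whether the samples of a group were separate cultures. Every value below is the authors' for a whole group, since a row of the table holds a fold change, the FPKM of both groups added up, and a q-value. Neither an SD nor the depth behind a value is known, and the q-values rest only on these samples, whose spread may be technical. FPKM is a fragment count scaled by transcript length and library size. Group levels were rebuilt from these numbers, and repeats of a receptor's level from different comparisons differed by at most 0.158%. The table leaves out anything under 2-fold or above a q of 0.05, so the lack of a row does not show that a gene was unchanged.

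FcγRI, the product of Fcgr1, is the high-affinity IgG receptor and can bind monomeric IgG. FcγRIII (Fcgr3) and FcγRIV (Fcgr4) bind IgG in complexes, FcγRIV mainly IgG2a and IgG2b. All of them signal through the shared Fc receptor gamma chain, encoded by Fcer1g, whose ITAM motif is phosphorylated by Src-family kinases and then recruits Syk. FcγRIIB (Fcgr2b) carries an inhibitory ITIM in its own tail and dampens the signal. Interferon-gamma is a textbook inducer of FcγRI on macrophages, and part of its action on promoters runs through GAS elements.

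The sequences before the start sites are shown as a description, and a link between their letters and the receptor changes below was not tested. Each line gives the 150 bases before the RefSeq start site on the gene's strand, 5′ to 3′, in GRCm38.p6, and the capitals mark matches to 3 motifs searched on both strands over 250 bases: GAS (TTCNNNGAA), the ISRE core (GAAA, any 2 bases, GAAA) and the PU.1 core (GAGGAA).
Fcgr1 (chr3:96293970-96294119, minus strand): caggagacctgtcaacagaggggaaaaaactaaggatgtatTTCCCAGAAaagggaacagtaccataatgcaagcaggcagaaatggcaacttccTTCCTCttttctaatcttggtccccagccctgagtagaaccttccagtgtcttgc
Fcgr3 (chr1:171059404-171059553, minus strand): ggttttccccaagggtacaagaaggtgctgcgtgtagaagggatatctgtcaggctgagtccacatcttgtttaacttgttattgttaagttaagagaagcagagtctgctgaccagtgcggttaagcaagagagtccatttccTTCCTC
Fcgr4 (chr1:171018776-171018925, plus strand): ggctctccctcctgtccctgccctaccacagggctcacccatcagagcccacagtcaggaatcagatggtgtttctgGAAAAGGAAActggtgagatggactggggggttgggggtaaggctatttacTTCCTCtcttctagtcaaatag
Fcgr2b (chr1:170976072-170976221, minus strand): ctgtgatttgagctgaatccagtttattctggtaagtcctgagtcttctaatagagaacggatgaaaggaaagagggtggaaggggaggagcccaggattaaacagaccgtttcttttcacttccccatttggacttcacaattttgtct

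Among the receptor genes the GAS letters were found only upstream of Fcgr1, beginning 109 bases before its start site, and 7.18% of 27025 promoters of this length hold them. The ISRE core was found only upstream of Fcgr4, 73 bases before its start site, and 3.04% of promoters hold it. The PU.1 core, on the opposite strand, lay 55, 6 and 22 bases before the start sites of Fcgr1, Fcgr3 and Fcgr4, and 23.1% of promoters hold it. The Fcgr2b window had no match to any of the 3 motifs. None of these matches overlap. A match is a description of letters in this window and was not tested as a binding site.

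The entries were identified by transcript ID in GENCODE M21. The main Fcgr1 entry (ENSMUST00000029748) is a coding transcript of 6 exons and 2589 bases on chromosome 3. The second Fcgr1 entry (ENSMUST00000200420) has 600 bases and is annotated for nonsense-mediated decay, and 91.3% of its 50-base windows also occur in the main transcript. Fcgr3 has a main entry (ENSMUST00000164044, coding length 801 bases) and a second coding entry (ENSMUST00000169017, coding length 798 bases), with 94.6% of the main entry's 50-base windows shared between them. Fcgr4 (ENSMUST00000078825) has a coding length of 747 bases. Fcgr3, Fcgr4 and Fcgr2b lie next to each other on chromosome 1 in the RefSeq gene order, with Fcgr4 in the middle.

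Fcgr3 and Fcgr2b share coding sequence, which bears on how far their levels can be separated. Of the 50-base windows of the main Fcgr3 transcript, 12.8% occur in a listed Fcgr2b transcript. The longest identical run between the main Fcgr3 coding sequence and that of the 7-exon Fcgr2b transcript (ENSMUST00000081103) is 129 bases, given here in capitals with 20 flanking bases on each side, from GENCODE M21.
Fcgr3, coding bases 263 to 391: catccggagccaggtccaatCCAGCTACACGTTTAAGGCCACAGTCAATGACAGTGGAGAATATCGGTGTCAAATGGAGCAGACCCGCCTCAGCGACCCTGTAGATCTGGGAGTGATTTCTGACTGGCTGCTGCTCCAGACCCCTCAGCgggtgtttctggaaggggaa
Fcgr2b, coding bases 278 to 406: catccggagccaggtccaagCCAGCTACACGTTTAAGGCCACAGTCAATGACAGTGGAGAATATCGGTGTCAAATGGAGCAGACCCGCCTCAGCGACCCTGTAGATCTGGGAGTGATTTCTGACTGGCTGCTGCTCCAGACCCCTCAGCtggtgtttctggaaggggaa
Reads from such a run cannot be assigned to either gene by sequence, so levels of Fcgr3 and Fcgr2b are uncertain to that extent. Fcgr1 and Fcgr4 share 0% of their 50-base windows with the other 3 genes.

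Cited1, the induced gene, had a rebuilt level of 86.7 FPKM with doxycycline and interferon-gamma, 11.5 with interferon-gamma, 168 with doxycycline and 0.703 in untreated construct cells. Parental cells have no rebuilt Cited1 level. Of 8 macrophage markers 4 have a row (Cd68, Adgre1, Itgam and Ptprc). With interferon-gamma in induced cells Cd68, Adgre1 and Itgam were lower and Ptprc, the pan-leukocyte CD45 gene, was higher. Cd68 had 255 FPKM with both treatments against 661 FPKM with doxycycline alone, 2.59-fold lower in the authors' deposited table (q = 0.000387). The markers searched for T, B and NK cells, neutrophils and mast cells have no row, which the 2-fold filter does not let be read as absence. Of 4 dendritic cell markers 3 were higher with interferon-gamma alone: Clec9a, Xcr1 and Zbtb46. Clec9a stood at 80.4 FPKM with interferon-gamma against 0.0437 FPKM in untreated construct cells (q = 0.0185 in the authors' deposited table). Xcr1 stood at 6.61 against 0.0430 FPKM (q = 0.00515) in the same comparison. Zbtb46 had 0.577 against 0.183 FPKM there (q = 0.0308), and Flt3 has no row. The calls of Clec9a and Zbtb46 are lost at a q of 0.01, and neither has a row for interferon-gamma in induced cells. Xcr1 was also higher with induction in stimulated cells, at 17.7 FPKM with both treatments against 6.61 FPKM with interferon-gamma alone. These markers move in the same comparisons as the receptors, and their part in the receptor results was not tested. In bulk RNA, fewer cells of a type and less RNA per cell cannot be told apart.

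Interferon-gamma without inducer raised all 3 activating receptor genes in construct cells. In this comparison 25.7% of the 5455 named genes with a row anywhere were higher and 24.5% were lower, a background drawn from listed genes only. Fcgr4 changed most, with 166 FPKM in interferon-gamma-treated cells against 12.0 FPKM in untreated construct cells, a 13.87-fold rise in the authors' deposited table (q = 0.000387, the smallest q the table holds). Fcgr1 had 87.5 FPKM with interferon-gamma against 14.1 FPKM without, a 6.21-fold rise in the authors' deposited table (q = 0.000387). The main Fcgr3 entry had 159 FPKM with interferon-gamma against 39.9 FPKM without, 3.99-fold in the authors' deposited table (q = 0.000387). Its second entry moved alike, with 36.5 FPKM against 9.45 FPKM, 3.86-fold in the authors' deposited table (q = 0.000387). The receptor that was most abundant in untreated cells, Fcgr3, thus had the smallest fold. Among the 1785 entries that were higher, Fcgr4 ranked 142 by fold, Fcgr1 368 and the main Fcgr3 entry 663, around a median fold of 3.15. With levels rescaled to a median log2 ratio of 0, the folds were 8.86 for Fcgr4, 3.965 for Fcgr1 and 2.55 for the main Fcgr3 entry. By level in stimulated cells, Fcgr4 and the main Fcgr3 entry ranked 76 and 81 among these higher entries.

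**Figure D1:**
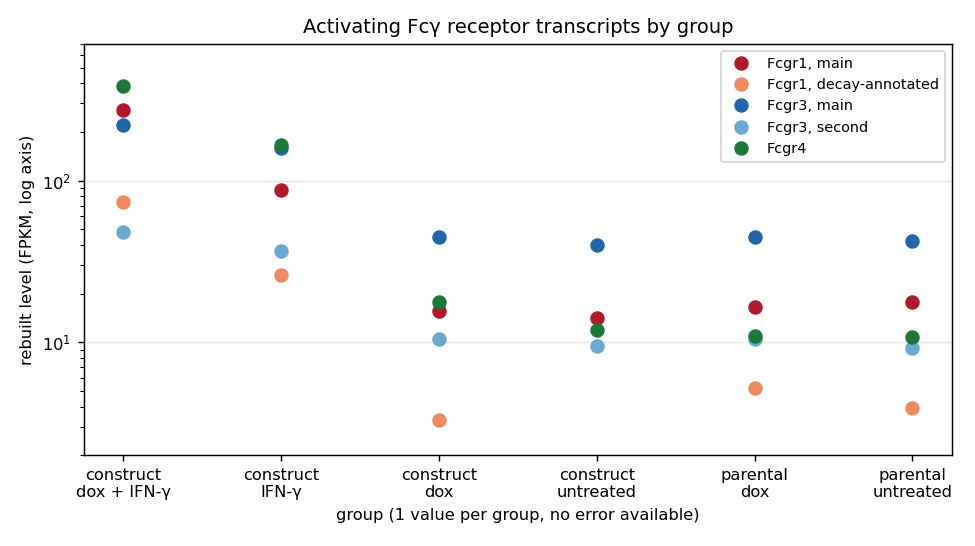
Rebuilt FPKM (log axis) of the 5 activating receptor entries in the 6 groups; each point is 1 value for a group of 3 samples, with no error available. All entries stand higher in the 2 interferon-gamma groups, and the main Fcgr1 entry is at 274 FPKM with both treatments, 87.5 FPKM with interferon-gamma alone and 14.1 to 17.8 FPKM in the other 4 groups. The decay-annotated Fcgr1 entry has no level in untreated construct cells.

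With CITED1 induced, interferon-gamma again raised all 3 genes. In this comparison 33.7% of named genes were higher and 34% lower. Fcgr4 had 386 FPKM with both treatments against 17.9 FPKM with doxycycline alone, 21.62-fold in the authors' deposited table (q = 0.000387). The main Fcgr1 entry had 274 FPKM with both treatments against 15.5 FPKM with doxycycline alone, 17.65-fold in the authors' deposited table (q = 0.000387). Its decay-annotated entry had 73.9 FPKM against 3.33 FPKM, 22.21-fold in the authors' deposited table (q = 0.0131), and this call is lost at a q of 0.01. The main Fcgr3 entry had 221 FPKM with both treatments against 44.7 FPKM with doxycycline alone, 4.95-fold in the authors' deposited table (q = 0.000387). The second Fcgr3 entry had 47.8 FPKM against 10.4 FPKM, 4.58-fold in the authors' deposited table (q = 0.000387). Fcgr4 and the main Fcgr1 entry ranked 132 and 170 by fold among 2476 higher entries, and the main Fcgr3 entry ranked 740, around a median fold of 3.40. With levels rescaled, the folds were 10.7 for Fcgr4, 8.72 for Fcgr1 and 2.45 for the main Fcgr3 entry, each still past 2-fold.

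The interferon-gamma fold with inducer, divided by that without, was 2.84 for Fcgr1, 1.56 for Fcgr4 and 1.24 for the main Fcgr3 entry. Under the authors' scaling the fold was thus larger with inducer for the 4 entries that can be compared. With levels rescaled to a median log2 ratio of 0, the ratio was 2.2 for Fcgr1, 1.21 for Fcgr4 and 0.960 for the main Fcgr3 entry, so that both Fcgr3 entries then had the smaller fold with inducer. These comparisons use 4 different groups, and the difference between the folds was not tested, since the table holds no values per sample. The rebuilt Cited1 level was not constant within them. With interferon-gamma it was 11.5 against 0.703 FPKM without inducer, and 86.7 against 168 FPKM with inducer.

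**Figure D2:**
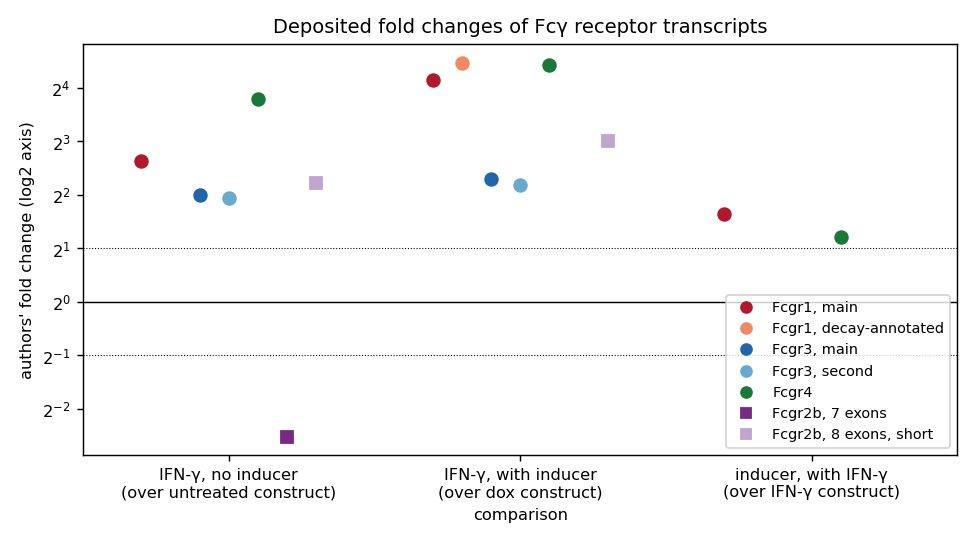
Fold changes from the authors' deposited table (log2 axis) of the Fcγ receptor entries in 3 comparisons; circles are activating receptors and squares 2 entries of Fcgr2b, dotted lines mark 2-fold in either direction and a missing symbol means no row. Fcgr4 (13.87 and 21.62) and Fcgr1 (6.21 and 17.65) lie above Fcgr3 (3.99 and 4.95) in both interferon-gamma comparisons, and the 7-exon Fcgr2b entry, with a row in the first comparison, lies below 1.

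In interferon-gamma-treated construct cells, Fcgr1 and Fcgr4 were higher with inducer, and Fcgr3 has no row. Effects of CITED1 and of doxycycline itself cannot be told apart here. In this comparison 6.84% of named genes were higher and 6.34% lower. Fcgr1 had 274 FPKM with both treatments against 87.5 FPKM with interferon-gamma alone, 3.13-fold in the authors' deposited table (q = 0.000387). Fcgr4 had 386 FPKM against 166 FPKM, 2.33-fold in the authors' deposited table (q = 0.000387), and this lies near the 2-fold limit of the table. The main Fcgr3 entry had 221 FPKM with both treatments against 159 FPKM with interferon-gamma alone, a ratio of 1.39, which is under that limit. Likewise its second entry stood at 47.8 FPKM against 36.5 FPKM, a ratio of 1.31. The decay-annotated Fcgr1 entry had 73.9 FPKM against 26.1 FPKM, a ratio of 2.83, close to that of the main entry, and has no row here. Its share of the summed Fcgr1 level was 21.3% with both treatments and 23.0% with interferon-gamma alone. Among 494 entries that were higher, Fcgr1 ranked 147 by fold and Fcgr4 309, and by level with both treatments they ranked 12 and 7. Both were among the more abundant entries that rose with induction, and the median fold of these entries was 2.535.

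**Figure D3:**
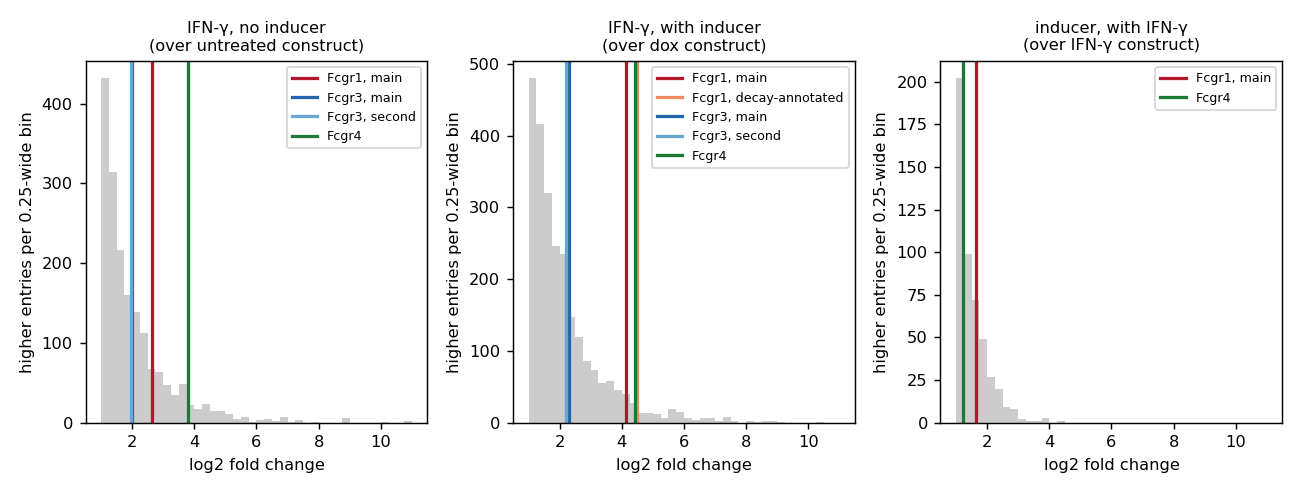
Histograms of the log2 fold change of all entries that were higher in each of 3 comparisons, as number of entries per bin 0.25 wide, with coloured lines at the activating receptor entries. Fcgr4 and Fcgr1 lie in the upper tail with interferon-gamma and inducer (ranks 132 and 170 of 2476) and nearer to the middle in stimulated cells with induction (ranks 309 and 147 of 494).

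The calls against other groups point the same way. Each of the 3 genes was higher in all 8 pairs of groups that differ in interferon-gamma, and these pairs share groups. For cells with both treatments, 33.8% of named genes were higher than in untreated construct cells, 33% than in parental cells with doxycycline and 34% than in untreated parental cells. For cells with interferon-gamma alone, 25.7% were higher than in construct cells with doxycycline, 26.1% than in parental cells with doxycycline and 26.4% than in untreated parental cells. Fcgr4 was 36.02-fold higher with both treatments than in untreated parental cells and 9.3-fold higher with interferon-gamma alone than in construct cells with doxycycline, the ends of its range in the authors' deposited table. The main Fcgr1 entry spanned 4.92-fold to 19.43-fold, and the main Fcgr3 entry 3.55-fold to 5.54-fold, in the authors' deposited table.

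Without interferon-gamma no activating receptor was called, with 0 rows in the 6 pairs of groups concerned. CITED1 induction in unstimulated cells called 0.403% of named genes, construct against parental cells 4.49% without and 5.61% with doxycycline, and doxycycline in parental cells 0.898%. The remaining pairs, construct cells with doxycycline against untreated parental cells and untreated construct cells against parental cells with doxycycline, called 6.65% and 4.09%. Few genes of any kind were thus listed there. These are Cuffdiff calls, and unadjusted p-values are not in the table. Fcgr4 had 17.9 FPKM in construct cells with doxycycline against 12.0 FPKM in untreated construct cells, a ratio of 1.49, and it stood 1.63 times as high as in parental cells with doxycycline. In parental cells Fcgr4 had 11.0 FPKM with doxycycline against 10.7 FPKM without, a ratio of 1.02. Fcgr1 had 15.5 FPKM in construct cells with doxycycline against 14.1 FPKM without, a ratio of 1.10, and Fcgr3 44.7 FPKM against 39.9 FPKM, a ratio of 1.12. Whether any of these small ratios exceeds the spread between samples cannot be said from the table.

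The 2 interferon-gamma groups came first in the order of levels for each gene. For the main Fcgr1 entry it was both treatments, interferon-gamma, untreated parental (17.8 FPKM), parental with doxycycline (16.6), construct with doxycycline and untreated construct cells, and no pair among the lower 4 groups has a row. The main Fcgr3 entry followed the same first 2 places, but these do not differ by 2-fold, and below them parental cells with doxycycline (44.8 FPKM), construct cells with doxycycline (44.7), untreated parental (42.4) and untreated construct cells (39.9) were close together. For Fcgr4 the lower groups ran from construct cells with doxycycline through untreated construct cells and parental cells with doxycycline to untreated parental cells.

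The make-up of the receptor set shifted with these unequal folds. Over the entries with a level in all 6 groups, the summed level of the 3 genes was 929 FPKM with both treatments, 449 with interferon-gamma, 88.5 with doxycycline and 75.4 in untreated construct cells, against 82.9 in doxycycline-treated and 80.2 in untreated parental cells. Fcgr3 made up 28.9% of this sum with both treatments and 43.5% with interferon-gamma alone, against 62.3% to 66.7% in the 4 groups without interferon-gamma. Fcgr4 made up 41.6% and 37.0% in the same stimulated groups, against 13.2% to 20.2% in the unstimulated ones. Fcgr1 took 29.5% with both treatments and 19.5% with interferon-gamma alone, and 17.5% to 22.2% elsewhere. These sums and shares leave out the decay-annotated Fcgr1 entry, at 73.9 FPKM with both treatments and 26.1 FPKM with interferon-gamma alone, so the Fcgr1 shares are understated. With both treatments Fcgr4 was thus the most abundant activating receptor transcript per length, while Fcgr3 was in the 4 unstimulated groups.

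**Figure D4:**
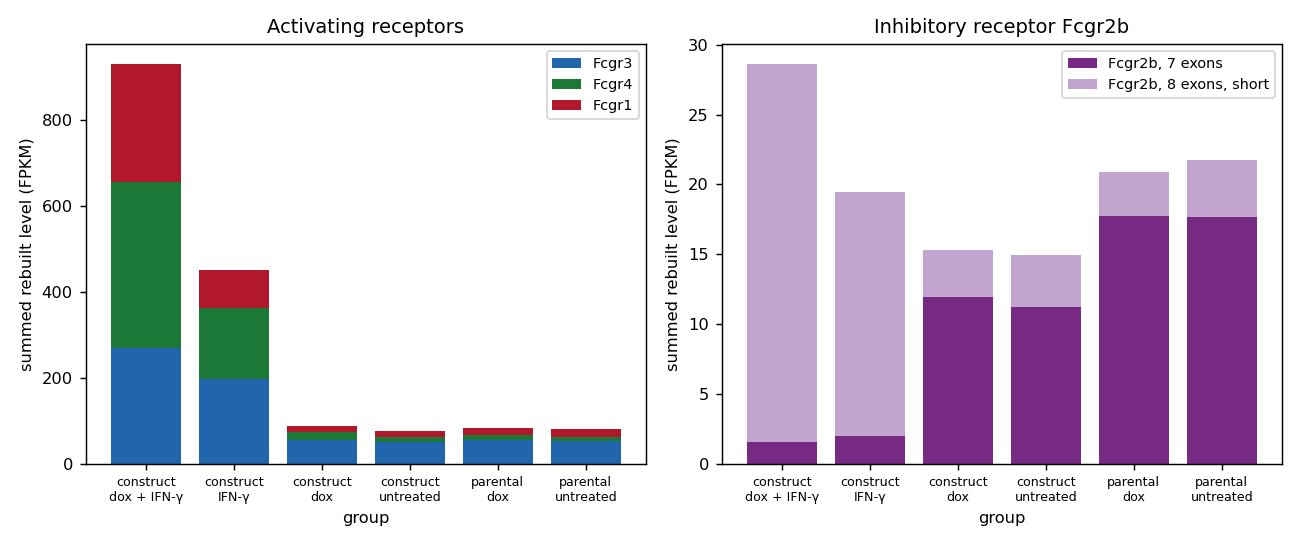
Summed rebuilt FPKM per group of the activating receptors (left, stacked by gene) and of 2 Fcgr2b entries (right, stacked by transcript; the axes differ in scale); 1 value per group, no error available. The activating sum is 929 and 449 FPKM in the 2 interferon-gamma groups and 75.4 to 88.5 FPKM in the others, while Fcgr2b spans 14.9 to 28.6 FPKM and changes its main entry.

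The inhibitory receptor gene Fcgr2b did not move as 1 unit. With interferon-gamma alone its 7-exon entry fell to 1.96 FPKM, against 11.2 FPKM in untreated construct cells, 5.72-fold in the authors' deposited table (q = 0.000387). A shorter 8-exon coding entry (ENSMUST00000159688) rose to 17.5 FPKM, against 3.75 FPKM in untreated construct cells, 4.67-fold in the authors' deposited table (q = 0.00109). With both treatments the 8-exon entry had 27.1 FPKM against 3.35 FPKM with doxycycline alone, 8.1-fold in the authors' deposited table (q = 0.000387). The 7-exon entry has no row in that comparison, and its levels rebuilt from other comparisons were 1.53 FPKM with both treatments and 12.0 FPKM with doxycycline. The coding lengths of these 2 entries are 879 bases (7 exons) and 936 bases (8 exons), and 96.7% of the 50-base windows of the 7-exon transcript occur in the other listed Fcgr2b transcripts. That share pools the other Fcgr2b entries, so the overlap of these 2 alone was not measured. How well reads separate these 2 entries is therefore not known. Summed over both, Fcgr2b had 28.6 FPKM with both treatments against 15.3 FPKM with doxycycline, and 19.5 FPKM with interferon-gamma against 14.9 FPKM in untreated construct cells. The 8-exon entry made up 94.7% of that sum with both treatments and 90.0% with interferon-gamma, against 21.9% with doxycycline and 25.1% in untreated construct cells. Another coding entry (ENSMUST00000027966) had 0.370 FPKM with interferon-gamma against 3.46 FPKM with doxycycline, and has no level in 2 of the groups.

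The summed activating level divided by the summed Fcgr2b level was 32.5 with both treatments and 23.1 with interferon-gamma, against 5.78 with doxycycline and 5.05 in untreated construct cells, and 3.69 in untreated parental cells. It is a ratio of FPKM with no error, and it rests on the assignment of reads between Fcgr3 and Fcgr2b described above. It leaves out the decay-annotated Fcgr1 entry and the Fcgr2b entry ENSMUST00000027966, which lack a level in some groups.

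Genes around the receptors were taken from 9 lists. The shares of named genes given above (25.7% higher and 24.5% lower with interferon-gamma alone, 33.7% and 34% with inducer) cover only genes with a row. In a list, the like base is therefore its number of genes with a row in some pair. List genes were not rescaled. Rescaling to a median log2 ratio of 0 divides ratios by 1.57 with interferon-gamma alone and by 2.02 with inducer, so the smaller rises below would fall under 2-fold. Of the list of 13 other Fc receptor genes, 4 have a row in some pair, and 1 was higher, 0 lower and 1 mixed (Fcgr2b) with interferon-gamma alone. Trim21, a cytosolic receptor for antibody-coated particles and a ubiquitin ligase, had 26.6 FPKM with both treatments against 11.0 FPKM with interferon-gamma alone, 2.42-fold in the authors' deposited table (q = 0.000387). Relative to doxycycline alone (2.65 FPKM) its rise with both treatments was 10.04-fold in the authors' deposited table. Fcgrt, which encodes the neonatal Fc receptor that recycles IgG, had 4.09 FPKM in doxycycline-treated construct cells against 1.02 FPKM in doxycycline-treated parental cells, 3.99-fold in the authors' deposited table (q = 0.000387), and no row for interferon-gamma within construct cells.

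Fcer1g, the signalling chain that all 3 activating receptors need, was far more abundant than any of them. It had 1373 FPKM with both treatments against 641 FPKM with doxycycline alone, 2.14-fold in the authors' deposited table (q = 0.000387), and it has no row for interferon-gamma without inducer. Divided by the rescaling shift given above, this rise would be under 2-fold. Receptors that pair with Fcer1g or with the related chain Tyrobp went both ways. Of the list of 16 genes, 1 was higher and 3 lower with interferon-gamma alone, and 3 were higher and 2 lower with inducer. Trem2, a lipid-sensing receptor, fell to 15.2 FPKM with interferon-gamma, against 190 FPKM in untreated construct cells, and to 4.57 FPKM with both treatments, against 200 FPKM with doxycycline. Clec4n, which encodes the fungal receptor dectin-2, had 8.66 FPKM with both treatments against 0.513 FPKM with doxycycline, 16.87-fold in the authors' deposited table (q = 0.000387).

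Among the kinases that act next to the receptors, Src-family genes were higher with interferon-gamma. Of the list of 9 kinases, 3 were higher and 0 lower without inducer, and 4 were higher and 1 lower with inducer. Src, the founding member of that kinase family, had 6.38 FPKM with interferon-gamma against 0.764 FPKM without, 8.34-fold in the authors' deposited table (q = 0.000387), and 12.4 FPKM with both treatments against 1.08 FPKM with doxycycline. Lyn, which phosphorylates ITAM and ITIM motifs, had 86.8 FPKM with interferon-gamma against 39.3 FPKM without, and 142 FPKM with both treatments against 39.9 FPKM with doxycycline. An entry of Syk, the kinase that docks on the phosphorylated ITAM, was the lower gene, at 2.74 FPKM with both treatments against 8.18 FPKM with doxycycline. No gene of the list was called between both treatments and interferon-gamma alone.

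Of 32 adaptor and lipid enzyme genes downstream of the ITAM, 5 were higher and 2 lower with interferon-gamma, and 9 were higher and 4 lower with interferon-gamma in induced cells. Sh3bp2, an adaptor that binds Syk and Vav proteins, was also called with induction in stimulated cells, at 30.8 FPKM with both treatments against 14.8 FPKM with interferon-gamma alone, 2.09-fold in the authors' deposited table (q = 0.018). Gab2, a docking protein for PI3-kinase, had 21.0 FPKM with interferon-gamma against 7.51 FPKM without. Pla2g4a, the cytosolic phospholipase that releases arachidonic acid, had 144 FPKM against 55.3 FPKM. Blnk, an adaptor best known from B cells, was lower, at 3.51 FPKM against 16.9 FPKM.

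Inhibitory phosphatase, receptor and Dok adaptor genes split evenly with interferon-gamma alone, with 4 of 23 higher and 4 lower. With inducer 7 were higher and 3 lower, and with induction in stimulated cells 2 were higher and 2 lower. The higher call of Clec12a there rests on a locus entry of 0.626 FPKM with both treatments against 0.234 FPKM with interferon-gamma alone. Cd33, a sialic acid-binding receptor, fell to 0.871 FPKM with interferon-gamma, against 31.3 FPKM in untreated construct cells, and Siglece to 0.167 FPKM, against 2.40 FPKM. Inpp5b, an inositol 5-phosphatase, had 69.9 FPKM with interferon-gamma against 12.7 FPKM without, 5.5-fold in the authors' deposited table (q = 0.000387). Inpp5d and Ptpn6, which encode the phosphatases SHIP-1 and SHP-1 that FcγRIIB and related receptors recruit, have no row in any pair used here.

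Genes of the phagocytic cup and of the oxidase that follows uptake went both ways. Of 39 actin and membrane genes 4 were higher and 2 lower with interferon-gamma, and 5 were higher and 3 lower with interferon-gamma in induced cells. Arf6, a small GTPase of membrane delivery to the cup, had 274 FPKM with interferon-gamma against 112 FPKM without, and Dock2, a Rac activator of leukocytes, 95.4 FPKM against 38.2 FPKM. Dock1, a Rac activator used in the uptake of dying cells, was lower, at 3.10 FPKM against 8.53 FPKM. Of 6 NADPH oxidase genes, 0 were higher and 1 lower with interferon-gamma alone, and 2 were higher and 1 lower in induced cells. The lower gene in both is Ncf4, by a locus entry under 1 FPKM in every group compared (0.122 FPKM with interferon-gamma against 0.678 FPKM without), a call that is lost at a q of 0.01. Ncf1, encoding the p47phox subunit, had 278 FPKM with both treatments against 136 FPKM with doxycycline, 2.04-fold in the authors' deposited table (q = 0.000387). Rescaling would take this rise under 2-fold.

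In the list of complement, scavenger and integrin genes that handle immune complexes, 4 of 15 were higher and 0 lower with interferon-gamma alone, and 4 were higher and 1 lower (Itgam) with interferon-gamma in induced cells. With induction in stimulated cells 2 were higher (C3 and Itgax) and 2 lower, C1qb and C1qc, which encode chains of the complement component C1q. C1qb had 3.19 FPKM with both treatments against 6.75 FPKM with interferon-gamma alone, 2.12-fold lower in the authors' deposited table (q = 0.000387). Itgax, encoding the CD11c chain of a complement receptor, had 24.2 FPKM with interferon-gamma against 2.04 FPKM without, and 58.6 FPKM with both treatments. C3, the central complement component, had 17.7 FPKM with interferon-gamma against 5.26 FPKM without, and 46.8 FPKM with both treatments. Axl, a receptor tyrosine kinase for dying cells, had 38.9 FPKM with interferon-gamma against 0.593 FPKM without.

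Of 16 transcription factor genes of interferon responses and myeloid cells, 8 were higher and 2 lower with interferon-gamma alone, and 6 were higher and 1 lower with interferon-gamma in induced cells. Spi1, encoding PU.1, had 350 FPKM with both treatments against 151 FPKM with doxycycline, 2.31-fold in the authors' deposited table (q = 0.000387). Rescaling would take this rise under 2-fold. Spi1 has no row for interferon-gamma without inducer or for induction in stimulated cells. Cebpa, a myeloid factor gene, fell to 2.41 FPKM with both treatments, against 19.0 FPKM with doxycycline alone.

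**Figure D5:**
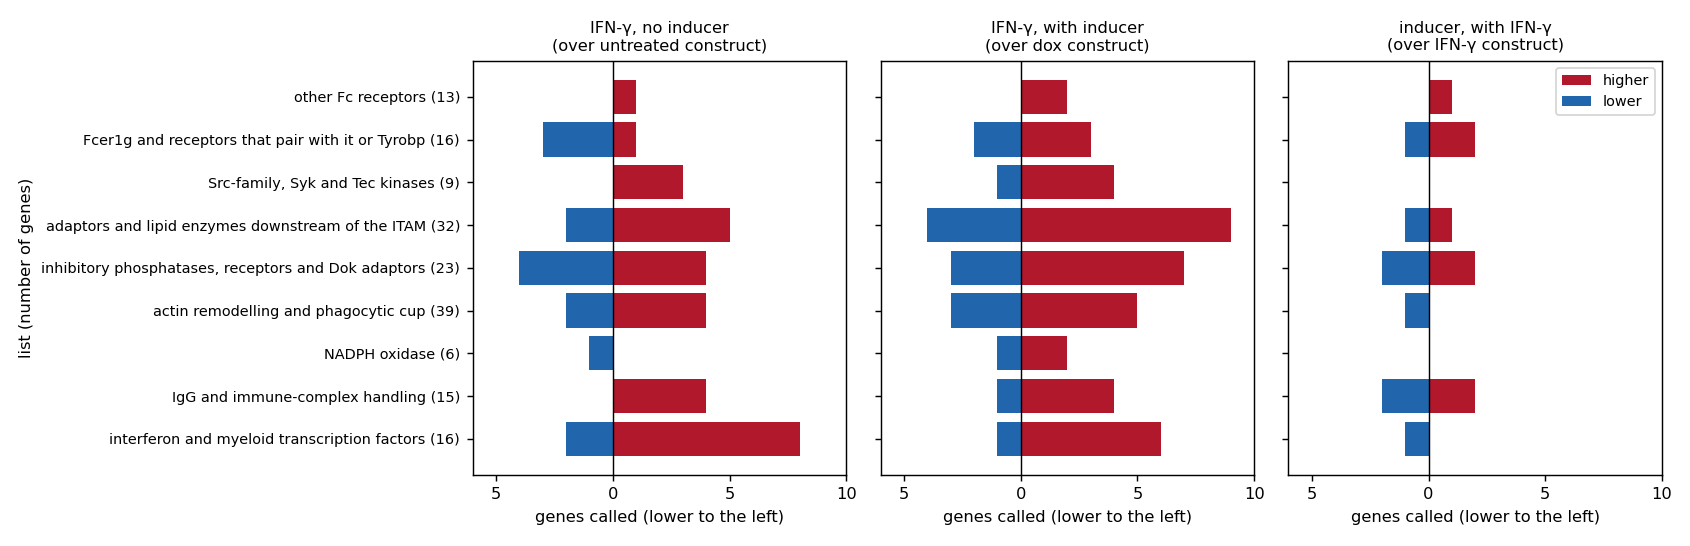
Number of genes called higher (right) and lower (left) in each of 9 lists around Fc receptor signalling, in 3 comparisons, with the number of genes in the list in brackets. Over all lists 30 genes were higher and 14 lower with interferon-gamma alone, 42 and 16 with interferon-gamma in induced cells, and 8 and 8 with induction in stimulated cells.

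Over all 9 lists (169 genes, 86 with a row in some pair), 30 genes were higher, 14 lower and 1 mixed with interferon-gamma alone. With interferon-gamma in induced cells 42 were higher and 16 lower, and with induction in stimulated cells 8 were higher and 8 lower. The median log2 fold change of the called list genes was 1.29, 1.26 and 0.021 in these 3 comparisons, beside 1.01, -1 and 1.01 for all called genes. Medians of called genes jump between the higher and lower ones because the table lists nothing between.

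Genes most like each receptor were sought by their pattern over the 6 groups, as the root mean square difference of log2 levels centred on their mean. Entries had to carry a single gene name that is not a predicted-gene symbol, with at least 1 FPKM in some group and a level in every group. For Fcgr1, out of 2829 entries compared, the most alike were Casp4 (0.130), which encodes the cytosolic lipopolysaccharide sensor caspase-11, Ifih1 (0.131), which encodes the RNA sensor MDA5, and St3gal5 (0.152), a ganglioside synthase gene. Casp4, for example, stood at 94.0 FPKM with both treatments, 35.6 with interferon-gamma and 5.03 in untreated construct cells. For the main Fcgr3 entry they were Pvr (0.0679), Nfkb2 (0.0751) and Fgd6 (0.0772), of which Nfkb2, an NF-kB subunit gene, had 36.7, 26.7 and 5.75 FPKM in the same groups. For Fcgr4 they were Arid5a (0.105), an RNA-binding protein gene, Itgax (0.232) and the complement gene C4b (0.236). Arid5a had 11.5 FPKM with both treatments, 5.05 with interferon-gamma, 0.502 with doxycycline and 0.310 in untreated construct cells. All entries share the same libraries, and only genes listed in several comparisons could be compared.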

How the data were processed

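Poly(A)-selected, strand-specific libraries were made from 18 samples, per the labels' protocols. Tools in the submitters' processing notes are Cuffdiff 2.2.1, STAR 2.5.3a, FastQC 0.11.5, edgeR and featureCounts, with no roles. Their build is not given in the sources used here. For each pair of groups, the authors' deposited Cuffdiff table gives a linear fold (ratio), the FPKM of both groups as 1 total, and a q-value (a p-value the authors adjusted), per the file headers. It has 112230 rows, of which 77406 name one of 2 groups outside the labelled ones and were not used, which left 34824. The lower level was rebuilt as total divided by 1 plus the fold, the higher as that times the fold, and a group's level is the median over comparisons. This reads the total as a sum.

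All calls are the authors' (q of 0.05 or less and at least 2-fold), and no test was added. Genes were counted in a direction where no called entry went the other way, and the gene's value is that of its most abundant called entry. Where the name field held an assembled locus ID beside a symbol, the symbol was used, and locus entries that carry a symbol were counted under it. The members, the 9 gene lists and the rule for naming were chosen with earlier results of these data known. That rule names the members, up to 4 called genes per list and comparison by fold, and 3 genes most like each member. Spi1, Fcer1g, Inpp5d, Ptpn6 and the chromosomal neighbours fall outside it and were chosen after their values were seen. Rebuilding was tested on simulated data that were made with the total as a sum, so this could not test that reading of the total. Python 3.11.15 with pandas 2.3.3 and numpy 2.4.6 was used. Promoters come from RefSeq (GRCm38.p6), and all 4 receptor genes matched by symbol. Transcripts come from GENCODE M21 (GRCm38), and all 8 receptor entries matched by ID. Protein sequences were not used here, and results on some genes are not reported here.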

Additional observations from a re-analysis of the deposited data

How the results depend on the processing

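All 3 genes with interferon-gamma, without and with inducer, and both Fcgr1 and Fcgr4 with induction in stimulated cells, kept their calls at a q of 0.01, with a minimum of 1 FPKM in either group, with a pseudocount of 1 FPKM and with levels rescaled to a median log2 ratio of 0. Their main entries had the smallest q the table holds and levels far above 1 FPKM. Only the rescaling could therefore have changed these calls. Over 11 folds of entries, 36 recomputed values, including sums over a gene's entries, kept their side of 2-fold and of the q threshold. The other, the decay-annotated Fcgr1 entry with interferon-gamma in induced cells, did not pass a q of 0.01. Rescaling shifted log2 ratios by 0.647, 1.02 and 0.103 in the 3 comparisons, and the rescaled folds with interferon-gamma stand beside the results. Fcgr4 was at 2.17-fold and Fcgr1 at 2.915-fold with induction. The ratio of folds with over without inducer turned for both Fcgr3 entries (0.960 and 0.918). Rescaling also moved the share of calls that were higher to 36.4%, 31.2% and 50.9%, in place of 53.2%, 52.9% and 56.5%. Only 4.13% and 1.49% of entries lie within 0.5 of 0 in the interferon-gamma comparisons, so their median falls between changed genes. Of 54 list counts recomputed at a q of 0.01 or from 1 FPKM, 4 moved by over 1.5 times, all from counts of 4 or fewer. List counts, and the folds of list and neighbour genes, were not recomputed with rescaled levels. No paired analysis was possible because the table holds no values per sample, and for the same reason no replicate could be left out and depth is unknown.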

Other observations

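The neighbourhood of the receptor genes was not part of the comparisons above. In RefSeq gene order on chromosome 1, B4galt3, a galactosyltransferase gene, lies beyond Fcer1g as seen from Fcgr3. It had 30.2 FPKM with interferon-gamma against 10.4 FPKM in untreated construct cells, 2.91-fold in the authors' deposited table. With both treatments it had 29.0 FPKM against 11.8 FPKM with doxycycline, 2.47-fold in the authors' deposited table, and it has no row between both treatments and interferon-gamma alone. Fcrla and Fcrlb, Fc receptor-like genes on the other side of Fcgr2b, have no row in these 3 comparisons. Near Fcgr1 on chromosome 3, H4c14 had 1.81 FPKM with interferon-gamma against 0.129 FPKM in untreated construct cells, 14.06-fold in the authors' deposited table. With both treatments it had 2.91 FPKM against 0.342 FPKM with doxycycline, 8.5-fold in the authors' deposited table. The genes H3c13, H2bc18, BC107364, Hjv and Txnip around Fcgr1 have no row in the same comparisons. A gene with no row may be silent, changed by under 2-fold or without a test.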
